A study of Mus musculus with 12 samples.

Results

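The untreated control cardiomyocytes were 3 of the 12 libraries in a series on cultured neonatal mouse heart muscle cells, and they were chosen by their column labels for PBS and the negative-control GapmeR. A GapmeR is a short antisense strand that leads the nuclease RNase H to a matching RNA, and the negative-control one has no intended target. These cells were therefore untreated in the sense that they got PBS where other groups got phenylephrine, but they did carry a control oligonucleotide. The series has 4 groups of 3 libraries, and the groups with phenylephrine or with the lincRNA-p21 GapmeR were not used here. The labels give no strain, sex, day of culture or isolation method, and they do not say whether the 3 replicates came from separate cultures or animals, so every SD below measures only the spread between these 3 libraries, which may be technical. No group was compared with another and no test was run.

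Cardiomyocytes are the contractile cells of the heart. Their sarcomeres slide actin thin filaments, which carry the troponin and tropomyosin switch, past myosin thick filaments when calcium is released from the sarcoplasmic reticulum, and their mitochondria supply the ATP. Many of these proteins come in families whose members are used in different muscles, chambers or ages, and around birth the mouse heart exchanges several fetal members for adult ones. A neonatal culture also holds non-muscle cells of the heart unless they have been removed.

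Polyadenylated RNA was sequenced, and 55416 genes were tabulated. The libraries held 21362652, 21330609 and 21705314 reads in genes for replicates 1, 2 and 3. Levels are given as TPM, a length-scaled unit in which reads are divided by the gene's exon length and scaled to a total of 1000000 per library. They were computed for the 52135 genes with a length in the GENCODE M21 annotation of GRCm38, from which all coordinates below come. A mean ± SD covers the 3 replicates (n = 3), and values given in threes are replicates 1, 2 and 3. At this depth 12167 of 21915 nuclear protein-coding genes reached 1 TPM in each of the 3 libraries, 7837 reached 10 TPM, 1224 reached 100 TPM and 71 reached 1000 TPM, while 4831 had no read in any. The median nuclear protein-coding gene had 3.15 TPM and the highest 1% exceeded 483.9 TPM.

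Some sequence helps to place the myosin genes. The introns of 3 myosin heavy chain genes carry a family of microRNAs, which are made from the same primary transcript as their host and share most of a seed, the bases that pair with a target. Their mature sequences from RefSeq (GRCm38.p6) are shown 5′ to 3′ with the seed, bases 2 to 8, in capitals, because the host genes were read at very unequal levels. The first lies in Myh6 at chr14:54949072-54949093 (minus strand), the next in Myh7 at chr14:54975710-54975731 (minus strand) and the last in Myh7b at chr2:155622893-155622913 (plus strand).
miR-208a-3p: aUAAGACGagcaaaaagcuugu
miR-208b-3p: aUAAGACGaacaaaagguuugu
miR-499-5p: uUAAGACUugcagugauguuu
The pair from Myh6 and Myh7 have the same seed, and the seed of miR-499-5p differs from it in its last base. MicroRNAs are too short for these libraries and were not measured here. Their hosts were measured, and the levels are given with the myosin family below.

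The 4 genes given as markers of the culture were all among the most abundant. Actc1 (chromosome 2, 114047282 to 114053548, minus strand), the cardiac alpha-actin of the thin filament, had 17362, 15056 and 17825 TPM and was the highest nuclear protein-coding gene. Myh6 (chromosome 14, 54941921 to 54966927, minus strand), the fast alpha-myosin heavy chain that drives contraction in the mouse heart, had 7193, 7035 and 7195 TPM. Nppa (chromosome 4, 148000722 to 148002079, plus strand), which encodes the hormone ANP, had 2641, 2371 and 2732 TPM. Tnnt2 (chromosome 1, 135836354 to 135852260, plus strand), the cardiac troponin T that ties the troponin complex to tropomyosin, had 1981, 2509 and 1848 TPM. Replicate 2 was the lowest library for Actc1, Myh6 and Nppa and the highest for Tnnt2. For Myh6 this order depended on the scale, as its reads were 325305, 339354 and 332516, highest in replicate 2. Of the 100-base windows of the Nppa transcript, 43.9% also occur in the antisense gene Gm13054 on the other strand, so part of its reads could belong to either gene.

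The level of Tnnt2, at rank 28, shows how far a gene's length decides a rank. Its exons sum to 7752 bases over all annotated transcripts, while its principal transcript, chosen by the annotation's APPRIS rank, has 1200 bases. With principal transcript lengths, an alternative added after the data were seen, Tnnt2 averaged 9605 ± 1713 TPM and had rank 3 among nuclear protein-coding genes. Actc1 and Eef1a1 were first and second with both lengths. Of the 25 highest genes, 17 were shared between the lengths, and of the highest 100, 74 were shared.

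Sarcomere, translation and energy genes filled the top of the list. Contractile genes among the 25 highest were Actc1, Myh6, Myl2 at 5223 ± 349 TPM, Myl7 at 3465 ± 437 TPM, Tnnc1 at 3173 ± 81.9 TPM, Tnni3 at 3121 ± 561 TPM and Tpm1 at 2341 ± 136 TPM. Myl2 and Myl7 are the ventricular and atrial regulatory light chains, Tnnc1 is the calcium sensor of troponin, Tnni3 its inhibitory subunit and Tpm1 the tropomyosin of the thin filament. The translation factors Eef1a1 and Eef2, which carry tRNA to the ribosome and move it along the message, had 10312 ± 492 and 3061 ± 132 TPM.

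Ribosomal proteins among the 25 were Rplp1 at 4823 ± 326 TPM, Rplp0 at 2614 ± 299 TPM, Rps15 at 2518 ± 191 TPM and Rps2 at 2251 ± 363 TPM. The respiratory chain gave Cox6a2 at 2944 ± 559 TPM, Cox6b1 at 2652 ± 92.0 TPM and Cox8a at 2295 ± 231 TPM, all subunits of cytochrome c oxidase, and the ATP synthase gave its alpha and beta subunits Atp5a1 at 2385 ± 263 TPM and Atp5b at 2312 ± 281 TPM. Fuel handling was represented by the fatty acid binding protein Fabp3 at 2938 ± 118 TPM and the glycolytic enzymes Gapdh at 2778 ± 100.0 TPM and Aldoa at 2326 ± 44.8 TPM. The others were the stress-responsive titin partner Ankrd1 at 2632 ± 127 TPM, Nppa, the small heat shock protein Cryab at 2519 ± 125 TPM and the LIM protein Crip2 at 2336 ± 287 TPM. Gapdh and Rps2 shared 78.0% and 58.5% of their 100-base windows with other genes, chiefly the processed pseudogenes Gm7336 and Rps2-ps10, so their levels are uncertain.

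**Figure D1:**
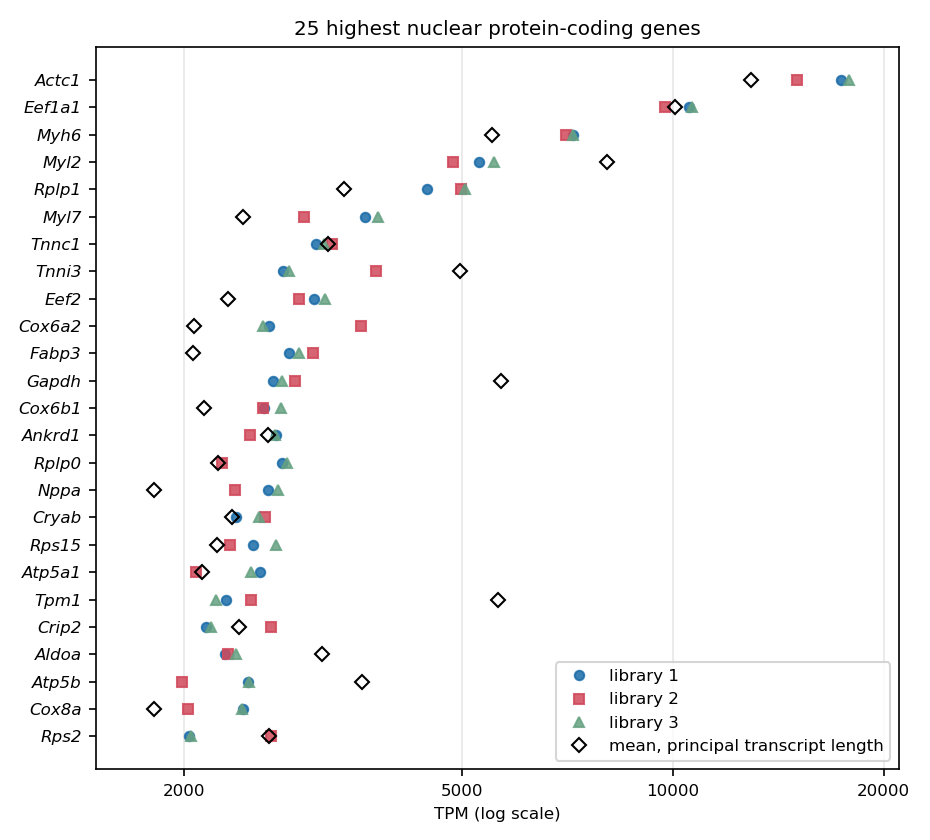
TPM of the 25 highest nuclear protein-coding genes (log axis) in replicates 1, 2 and 3 of the control culture, with open diamonds for the mean when the principal transcript length is used. Actc1 was highest with either length, Tnni3 and Cox6a2 were higher in library 2 than in both others, and Tpm1 and Gapdh moved up most with the other length.

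The transcriptome was concentrated in few genes. The 10 highest nuclear protein-coding genes held 7.82 ± 0.16% of nuclear TPM, the highest 100 held 25.4 ± 0.73% and the highest 1000 held 59.1 ± 0.78%. The 86 nuclear genes of the respiratory chain and ATP synthase held 5.97 ± 0.10% of nuclear TPM and put 14 members in the highest 100. The 86 cytosolic ribosomal protein genes held 7.31 ± 0.17% and put 20 there. The 44 collagen genes, which encode the matrix made by fibroblasts, held 0.377 ± 0.005% and put none there.

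Mitochondrial genes took 8.24%, 10.7% and 8.19% of reads and 21.4%, 26.9% and 21.4% of TPM. Replicate 2 stood above the other two on both scales, and the 95% Wilson interval of its share of reads, 10.7065% to 10.7328%, shows that counting error is small beside this gap. The 5 highest of the 13 mitochondrial protein-coding genes were mt-Co1 at 65689 ± 2490 TPM, mt-Nd1 at 36341 ± 5596 TPM, mt-Cytb at 30355 ± 5500 TPM, mt-Nd2 at 24240 ± 4601 TPM and mt-Nd6 at 20520 ± 5081 TPM, subunits of complexes I, III and IV. No source used here states whether the counting used strand. Reads of mt-Nd6, which lies on the minus strand, may therefore include those of transcripts from the other strand.

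A block of 6 neighbouring mitochondrial genes was listed far below the rest. Between positions 7013 and 10173 of the mitochondrial genome, mt-Co2 averaged 42.9 ± 13.3 TPM, mt-Co3 36.8 ± 4.7 TPM, mt-Atp6 34.5 ± 9.5 TPM, mt-Nd4l 13.2 ± 2.5 TPM, mt-Atp8 11.5 ± 3.9 TPM and mt-Nd3 9.68 ± 1.84 TPM. The genes on either side, mt-Co1 and mt-Nd4, had 65689 and 17959 TPM. Most mitochondrial genes are made as parts of the same long transcript, and mt-Co2 and mt-Co3 encode core subunits of the same enzyme as mt-Co1.

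In 5 of the 6, nearly every 100-base window also occurs in an annotated transcript of another gene: 99.9% in mt-Co3, 99.5% in both mt-Co2 and mt-Atp6, 98.5% in mt-Nd4l and 97.6% in mt-Nd3. The corresponding share was 60.8% in mt-Nd4, 30.8% in mt-Co1, 3.19% in mt-Nd2 and 0% in mt-Nd1, mt-Nd5, mt-Nd6 and mt-Cytb. The exception was mt-Atp8, which lies between mt-Co2 and mt-Atp6 and was low with 0% shared. Only annotated transcripts were searched, so a nuclear copy of mt-Atp8 outside them would have been missed. The unprocessed pseudogenes Gm28661, Gm10925 and Gm28437, which match mt-Co2, mt-Atp6 and mt-Co3, were themselves listed at 24.2 to 49.1, 30.3 to 49.4 and 27.0 to 32.6 TPM, and Gm10222, which matches mt-Nd4l, at 14.2 to 26.1 TPM. Gm28438, which matches mt-Nd3, was higher, at 183 ± 20.9 TPM against 9.68 ± 1.84 TPM for mt-Nd3 itself. No source used here states how reads with several matches were counted, and the part of this in the low values was not tested. The mitochondrial shares given above count the 6 low genes as listed, and whether those shares are too low was not tested.

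**Figure D2:**
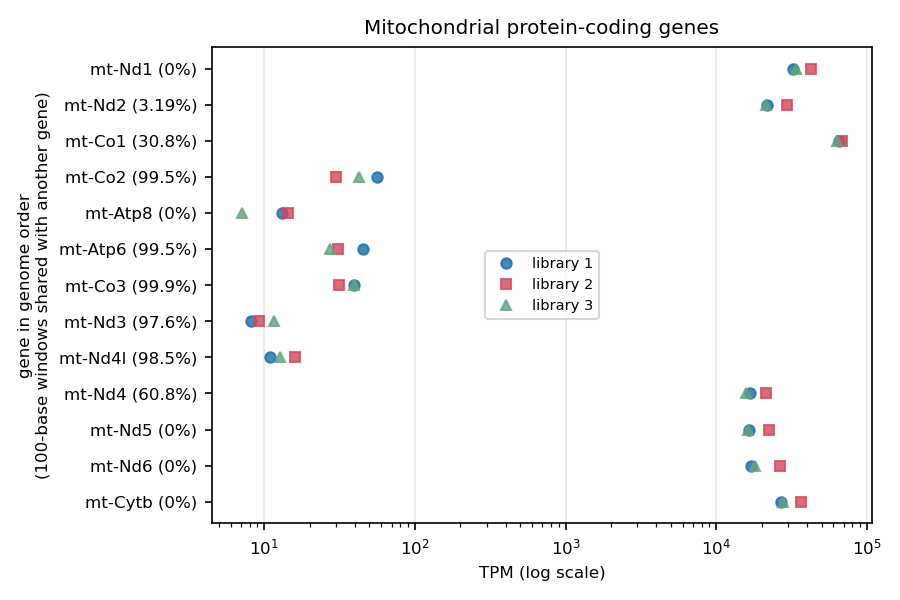
TPM (log axis) of the 13 mitochondrial protein-coding genes in genome order in replicates 1, 2 and 3, with the percent of each gene's 100-base windows that also occur in another gene's annotated transcript in brackets. The 6 genes from mt-Co2 to mt-Nd4l lie between 7.13 and 56.3 TPM and the other 7 lie at 15850 TPM or above in all 3 libraries.

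Marker lists describe the make-up of the culture, as shares of RNA and not of cells. In bulk samples such as these, fewer cells of a type and less RNA per cell cannot be told apart. The 14 cardiomyocyte markers summed to 43955, 41303 and 44891 TPM, or 4.34 ± 0.19% of all TPM. All 14 reached 10 TPM in every library and 12 reached 100 TPM, with a median of 1882 TPM against 3.15 TPM over all nuclear protein-coding genes. With summed exons the lowest were Ryr2, the calcium release channel, at 97.3 ± 16.8 TPM and Ttn, the giant spring protein titin, at 74.6 ± 15.6 TPM, both very long genes. With principal transcripts they were Tcap, which anchors titin at the Z-disc, at 77.3 TPM and Ttn at 60.9 TPM, and Ryr2 had 117 TPM.

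Fibroblast markers were the next of the non-muscle lists, with 14 of 14 above 1 TPM and 13 above 10 TPM in every library. They summed to 1956, 1808 and 1969 TPM, with a median of 91.9 TPM. Col1a1 had 484 ± 17.9 TPM and Col3a1 319 ± 13.7 TPM, both fibrillar collagens. Gsn, an actin-severing protein that other cells make too, had 262 ± 31.5 TPM and the proteoglycan Dcn 192 ± 3.5 TPM. With principal transcripts Dcn led the list at 448 TPM. The defining transcription factor Tcf21 had 63.6, 64.3 and 65.2 TPM and the receptor Pdgfra 31.8, 25.9 and 30.8 TPM, and Pdgfra was lowest in replicate 2.

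The smooth muscle and pericyte list summed to 1642 ± 47.7 TPM, and Acta2, the smooth muscle alpha-actin, was 1387 ± 50.3 TPM of it. Acta2 is also made by fetal cardiomyocytes and activated fibroblasts. The next members were Abcc9, a potassium channel regulator also found in cardiomyocytes, at 91.6 ± 10.8 TPM, the receptor Pdgfrb at 74.2 ± 7.6 TPM and the proteoglycan Cspg4 at 34.0 ± 4.2 TPM. The more specific contractile genes were low, with Myh11 at 9.63 ± 1.10 TPM, Cnn1 at 7.79 ± 0.40 TPM and Tagln at 3.67 ± 0.83 TPM. Of the exons of Tagln 62.4% overlap the gene Gm48529 on the other strand.

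Epicardial markers, genes of the mesothelial cover of the heart, were even: all 10 reached 10 TPM in every library and none reached 100 TPM. Upk3b and Upk1b had 72.4 ± 2.2 and 71.8 ± 1.5 TPM, Tbx18 57.9 ± 5.7 TPM and Krt18 55.2 ± 2.1 TPM. The defining factor Wt1 had 12.3, 10.8 and 12.8 TPM, the lowest of the list with summed exons of 6195 bases. With its principal transcript of 1554 bases Wt1 had 33.5 TPM, above Aldh1a2 at 27.3 TPM and Krt8 at 19.9 TPM on that scale. The list summed to 482, 460 and 492 TPM.

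Endothelial markers summed to 243 ± 9.4 TPM, of which Eng, a TGF-beta co-receptor that fibroblasts also make, was 167 ± 7.2 TPM. The junction protein Cdh5 had 18.5 ± 0.5 TPM, the receptor Tek 10.4 ± 1.8 TPM and Pecam1 7.39 ± 0.69 TPM. The median of the 14 was 6.18 TPM, and Vwf was at 0.392 ± 0.104 TPM. Macrophage markers summed to 330, 385 and 400.5 TPM. The lysosomal protein Cd68 had 138 ± 27.6 TPM, lysozyme Lyz2 125 ± 24.6 TPM, and the signalling adaptors Fcer1g and Tyrobp 53.1 ± 12.2 and 23.2 ± 6.0 TPM. The leukocyte phosphatase Ptprc averaged 0.547 ± 0.144 TPM and the microglial and macrophage receptor Cx3cr1 0.147 TPM, so the list was uneven.

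Nerve-related lists were low. The Schwann cell list summed to 16.7 ± 1.9 TPM, led by Mbp at 5.96 ± 0.93 TPM, Ngfr at 3.82 ± 0.40 TPM and S100b at 3.09 ± 0.44 TPM. With the principal transcript length Mbp had 55.6 TPM and the list summed to 63.4 ± 8.7 TPM. The neuron list summed to 50.6 ± 3.4 TPM, and the tubulin Tubb3 was 45.4 ± 3.7 TPM of it. The enzymes Dbh and Th, which make noradrenaline and dopamine, had 3.13 ± 0.35 and 0.636 ± 0.331 TPM, and the intermediate filament Prph had 1.33 ± 0.35 TPM.

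Blood and foreign tissue lists were at or near 0. Lymphocyte markers summed to 0.486 ± 0.339 TPM, led by Cd79a at 0.364 TPM and Cd4 at 0.0720 TPM, and Cd3e, Cd3g and Nkg7 had no read in any library. A count of 0 allows up to 3 reads per library, which is 0.109 TPM for Cd3e, 0.136 TPM for Cd3g and 0.488 TPM for Nkg7, counting error only. Erythroid markers summed to 1.37 ± 0.51 TPM. Hba-a1 had 0.827 TPM, Hba-a2 0.217 TPM and Hbb-bs 0.126 TPM, and Hbb-bt had no read, which allows 0.635 TPM. The globin pairs share most of their sequence, so reads of the copies may not have been told apart.

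The skeletal muscle list summed to 5.70 ± 0.69 TPM. Tnnt3 had 2.39 ± 1.12 TPM, Tnni2 2.29 ± 0.63 TPM, Actn3 0.896 ± 0.038 TPM and Myh1 0.0831 TPM. The myogenic factors Myog and Myf5, the satellite cell factor Pax7 and the fast myosin Myh4 had no read, which allows 0.298, 0.214, 0.0761 and 0.0742 TPM. Markers of other organs summed to 2.78 ± 1.03 TPM. Of these the lung surfactant gene Sftpc had 2.73, 3.24 and 1.41 TPM, Gfap 0.146 TPM, Apoa1 0.117 TPM and Adipoq 0.0359 TPM. Umod of the kidney and Ins2 of the pancreas had no read, which allows 0.161 and 0.340 TPM.

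**Figure D3:**
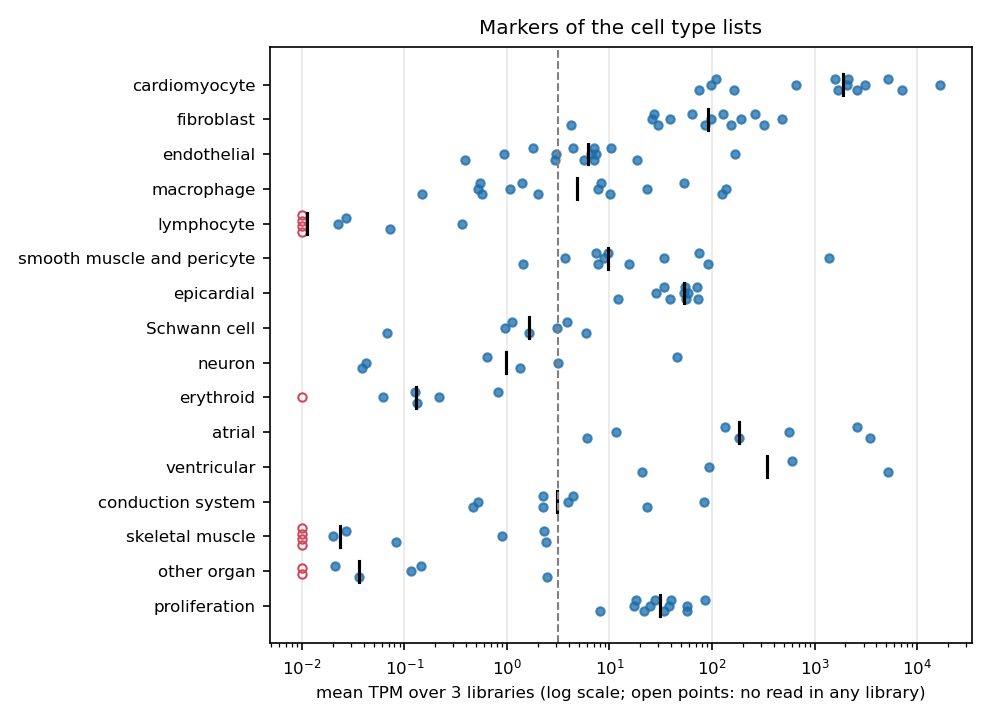
Mean TPM over 3 libraries (log axis) of each marker in the 16 cell type lists, with a bar at the median of each list and a dashed line at the median of all nuclear protein-coding genes, 3.15 TPM. Cardiomyocyte markers are highest, fibroblast and epicardial markers lie between, and open points on the left edge mark genes with no read in any library.

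Genes of both chamber types and of cycling cells were present. Atrial genes summed to 6946 ± 705 TPM and were led by Myl7 at 3465 ± 437 TPM, Nppa at 2581 ± 188 TPM, Myl4 at 565 ± 73.9 TPM and Sln, which restrains the calcium pump in atria, at 183 ± 6.2 TPM. Ventricular genes summed to 5937 ± 367 TPM and consisted of Myl2 at 5223 ± 349 TPM, the transcriptional cofactor Lbh at 599 ± 29.8 TPM, and the factors Irx4 at 94.1 ± 3.0 TPM and Hey2 at 20.7 ± 1.2 TPM. Nppa and Myl7 are not confined to atria in the young mouse heart, so the sums are not shares of chambers. With the principal transcript length the order of the sums was the other way, with 6443 ± 623 TPM for the atrial list and 8582 ± 457 TPM for the ventricular list.

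Conduction system genes summed to 121 ± 1.1 TPM, mainly the connexin Gja5 at 83.7 ± 1.4 TPM and the pacemaker channel Hcn4 at 23.4 ± 0.6 TPM. Shox2 and Tbx3, factors of the sinus node, had 4.40 ± 0.55 and 3.94 ± 0.42 TPM. All 12 genes of the proliferation list were above 1 TPM and 11 above 10 TPM in every library. The replication clamp Pcna had 86.1 ± 6.9 TPM, Mki67, found in cycling nuclei, 57.5 ± 5.1 TPM, the ribonucleotide reductase subunit Rrm2 56.8 ± 4.7 TPM and the cyclin Ccna2 40.1 ± 3.3 TPM. Which cell type carried them was not measured.

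Contractile families were dominated by their cardiac members. Myh6 made up 95.2 ± 0.14% of myosin heavy chain TPM, and Myh7, the slow beta chain of the fetal mouse heart, 2.18 ± 0.12% at 158, 158 and 176 TPM. Myh7b, the other microRNA host, had 12.5 ± 1.3 TPM. The nonmuscle chains Myh9 and Myh10 had 114 ± 3.2 and 58.9 ± 2.6 TPM, and Myh11, Myh8 and Myh14 lay between 2.27 and 9.63 TPM. Myh6 and Myh7 lay far apart in all 3 libraries, but Myh8 and Myh14 overlapped.

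Among myosin light chains, Myl2 held 41.4 ± 0.55%, Myl7 27.4 ± 1.5%, Myl3 13.3 ± 0.46%, Myl9 9.65 ± 1.45% and Myl4 4.46 ± 0.29% of TPM. Myl3 is the ventricular essential chain, Myl4 the atrial and fetal one and Myl9 the smooth muscle and nonmuscle regulatory chain. The smaller members were Myl6 at 284 ± 10.9 TPM, Myl12a at 122 ± 15.3 TPM, Myl1 at 70.8 ± 3.0 TPM, Myl6b at 10.2 ± 0.45 TPM and Myl12b at 2.38 ± 0.18 TPM. The order below Myl2 depended on the length used: with principal transcripts Myl2 held 47.0%, Myl3 15.0%, Myl7 14.2%, Myl4 11.4%, Myl6 5.62% and Myl9 5.15%. Myl12b is annotated under 2 identifiers that overlap, and only the one with more reads was used. The overlap covers 26.7% of its exons on the same strand. How reads that fall in both were counted is not stated, so the level of Myl12b is uncertain.

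Of the actins Actc1 held 81.5 ± 1.1%, the cytoplasmic Actb 7.96 ± 0.67%, Acta2 6.78 ± 0.62% and Actg1 3.56 ± 0.14%. The skeletal Acta1 was at 18.1, 16.4 and 19.1 TPM, or 0.0871 ± 0.0013%, below the enteric Actg2 at 28.3 ± 1.3 TPM. Tnnt2 held 99.2 ± 0.089% of troponin T, beside Tnnt1 at 13.6 ± 1.1 TPM and Tnnt3 at 2.39 ± 1.12 TPM, and the whole of troponin C was Tnnc1. The fast skeletal Tnnc2 had no read, which allows 0.558 TPM by counting error only. Of its exons 74% overlap Ube2c on the other strand, which was read. How reads that fall in both genes were counted is not stated, so the absence of Tnnc2 reads is uncertain evidence.

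Troponin I was shared between Tnni3, the adult cardiac subunit, at 78.6 ± 3.9% and Tnni1, the slow skeletal subunit that the fetal heart uses, at 21.3 ± 3.8%. Tnni3 had 2770, 3768 and 2826 TPM and Tnni1 856, 766 and 867 TPM, so replicate 2 was highest for one and lowest for the other. The fast skeletal Tnni2 had 2.29 ± 0.63 TPM. Tpm1 held 76.5 ± 0.99% of tropomyosin, Tpm4 17.8 ± 1.2%, Tpm3 3.29 ± 0.043% and Tpm2 2.43 ± 0.20%, and with principal transcripts Tpm1 held 89.5% and Tpm4 6.32%. The cardiac actinin Actn2 held 78.7 ± 0.98% beside the nonmuscle Actn4 at 13.1 ± 0.38% and Actn1 at 8.19 ± 0.64%. Cardiac myosin-binding protein C, Mybpc3, had 2273, 1653 and 2331 TPM and held nearly all of its family, against 1.57 ± 0.53 TPM for the fast skeletal Mybpc2.

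Calcium handling showed the same kind of dominance. The sarcoplasmic reticulum pump Atp2a2 had 2374, 1791 and 2408 TPM, 99.8 ± 0.056% of its family, and Atp2a3 had 3.42 ± 0.68 TPM. The luminal calcium buffer Casq2 held 97.0 ± 0.18%, beside the skeletal Casq1 at 34.5, 36.4 and 34.1 TPM. Ryr2 held 79.3 ± 0.35% of release channels, and the inositol trisphosphate receptors Itpr1, Itpr3 and Itpr2 had 10.6 ± 2.4, 8.65 ± 1.72 and 4.98 ± 0.60 TPM, with Ryr3 at 1.20 ± 0.14 TPM. Itpr1 and Itpr3 overlapped between libraries, and with principal transcripts Itpr2 and Itpr3 were close, at 6.21 and 6.09 TPM. Pln, the brake on the pump, had 652 ± 73.5 TPM against 183 ± 6.2 TPM for its atrial relative Sln, and 57.1% of the windows of Pln occur in Gm47644, on the other strand of its locus.

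Channels were more mixed. The L-type calcium channel Cacna1c had 44.5, 33.9 and 42.5 TPM, above the T-type channels Cacna1g at 30.5 ± 2.5 TPM and Cacna1h at 30.0 ± 1.8 TPM, whose libraries overlapped, and Cacna1d at 1.11 ± 0.11 TPM. Cacna1c held 39.4 ± 2.0% of these channels, and 63.1% with principal transcripts. The pacemaker channel Hcn4 had 22.8, 23.9 and 23.6 TPM, above Hcn2 at 6.48 ± 0.78 TPM. Among inward rectifiers the acetylcholine-gated Kcnj5 had 103 ± 14.4 TPM and Kcnj3 57.7 ± 5.8 TPM, and the ATP-sensitive Kcnj11 had 82.3 ± 1.2 TPM. The classical rectifiers Kcnj12 and Kcnj2 were lower and overlapped, at 13.4 ± 1.2 and 13.0 ± 1.1 TPM, and Kcnj8 had 1.42 ± 0.51 TPM.

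Gap junctions couple neighbouring cardiomyocytes electrically. Gja1, the main ventricular connexin, held 76.9 ± 0.6% of connexin TPM, Gja5 17.3 ± 0.82%, Gjc1 4.84 ± 0.08% and Gja4 0.953 ± 0.146%, and with principal transcripts Gja1 held 85.1% and Gja5 11.0%.

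Receptors bear on the agonist used elsewhere in the series, since phenylephrine acts on alpha1-adrenergic receptors. Adra1b had 28.5, 27.6 and 28.9 TPM and held 75.4 ± 0.32% of alpha1 receptor TPM, and Adra1d had 9.16, 9.18 and 9.35 TPM. The values of these genes did not overlap, and Adra1a averaged 0.0336 TPM. The beta receptor Adrb1, through which noradrenaline drives the heart, had 30.5 ± 1.2 TPM. Nppb, which encodes the peptide BNP, had 511, 650 and 535 TPM beside Nppa, and Nppa held 82.0 ± 3.0% of the pair.

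Metabolic families mixed muscle and general members. The insulin-responsive glucose transporter Slc2a4 had 73.7 ± 7.0 TPM, Slc2a1 61.9 ± 2.3 TPM and Slc2a3 3.01 ± 0.39 TPM. Hk1 held 78.8 ± 3.1% of hexokinase, Hk2 19.9 ± 2.9% and Hk3 1.28 ± 0.42%, and with principal transcripts Hk2 held 10.9%. The muscle phosphofructokinase Pfkm held 72.5 ± 2.9%, and Pfkl and Pfkp, at 45.3 ± 4.8 and 40.3 ± 4.1 TPM, overlapped. With principal transcripts Pfkm held 55.4%, Pfkp 27.5% and Pfkl 17.1%. Aldoa held 98.6 ± 0.17% of aldolase beside Aldoc at 33.6 ± 4.4 TPM, and Pkm had 705 ± 20.1 TPM, close to all of pyruvate kinase.

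Lactate dehydrogenase was divided between Ldhb, the heart subunit, at 62.1 ± 2.8% and Ldha, the muscle subunit, at 37.9 ± 2.8%, and Ldhc of the testis had no read, which allows 0.282 TPM. With principal transcripts Ldhb and Ldha were at 51.4 ± 3.0% and 48.6 ± 3.0%, and without a length the log2 ratio of Ldhb to Ldha was -0.36, so their order depended on the length. The muscle enolase Eno3 had 790 ± 141 TPM, Eno1 329 ± 20.8 TPM and Eno2 7.37 ± 0.48 TPM. The muscle creatine kinase Ckm had 187 ± 9.1 TPM, the brain form Ckb 158 ± 20.5 TPM, the mitochondrial Ckmt2 90.4 ± 1.2 TPM and Ckmt1 1.29 ± 0.11 TPM. The order within the first 2 members of enolase and creatine kinase depended on the length as well: with principal transcripts Eno3 and Eno1 had 49.6% and 49.7% of their family, and Ckm and Ckb 33.1% and 51.5%. In Eno1, 59.0% of windows also occur in another gene, chiefly its copy Eno1b.

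Cytochrome c oxidase has muscle and general forms of several subunits. The muscle Cox6a2 had 2645, 3589 and 2598 TPM against 1792, 1725 and 1835 TPM for Cox6a1. The muscle forms were the lower ones for subunit 7A, with Cox7a1 at 366 ± 44.5 TPM and Cox7a2 at 694 ± 162 TPM, and for subunit 8, with Cox8b at 659 ± 62.1 TPM and Cox8a at 2295 ± 231 TPM. The libraries of the 2 members did not overlap in any of the 3 pairs. The ADP/ATP carrier Slc25a4 of heart and muscle had 1996 ± 112 TPM and Slc25a5 1212 ± 222 TPM. Fabp3 held 98.3 ± 0.044% of fatty acid binding proteins, beside Fabp5 at 48.0 ± 3.2 TPM, or 5.54% with principal transcripts, and the adipocyte and endothelial Fabp4 at 3.42 ± 0.42 TPM.

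Cardiac transcription factors were read at a wide range of levels. Nkx2-5 lay above 483.9 TPM, the level that the highest 1% of nuclear protein-coding genes exceeded. Nkx2-5, the cardiac homeobox factor, had 526, 558 and 539 TPM and Gata4 416, 389 and 424 TPM. Srf had 206 ± 4.4 TPM and its muscle coactivator Myocd 43.0 ± 0.71 TPM. Gata6 was at 116 ± 3.5 TPM, and Gata5, Gata3 and Gata2, factors of endocardium, nerve and blood lineages, were between 1.48 and 4.55 TPM. Tbx20 had 127 ± 9.0 TPM, Tbx5 93.4 ± 1.9 TPM and Tbx2 6.62 ± 1.12 TPM.

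Tead1 and Hand2 overlapped at 119 ± 10.7 and 117 ± 3.2 TPM, and 19.6% of the exons of Hand2 overlap the noncoding Hand2os1 on the other strand. Prox1 and Hand1 had 52.9 ± 3.0 and 8.71 ± 0.90 TPM. Mef2d had 139 ± 8.7 TPM, Mef2a 76.1 ± 5.1 TPM and Mef2c 22.9, 18.6 and 21.6 TPM, but with the longest transcript as length the log2 ratio of Mef2d to Mef2a was -0.39.

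Structural and stretch-linked families completed the set. Ankrd1 had 2632 ± 127 TPM against 1.44 ± 0.49 TPM for Ankrd23, 81.1% of whose windows occur in the overlapping gene Gm42417. Fhl2, the LIM protein of cardiac muscle, had 1117, 726 and 1143 TPM, Fhl1 292 ± 16.7 TPM and Fhl3 112 ± 15.6 TPM. Csrp1 had 525 ± 39.8 TPM, the muscle LIM protein Csrp3 238 ± 18.8 TPM and Csrp2 119 ± 12.4 TPM, and with principal transcripts Csrp3 led at 48.6% against 38.6% for Csrp1.

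The muscle intermediate filament Des had 1190, 1560 and 1256 TPM, the mesenchymal Vim 1022, 979 and 1055 TPM, Nes 38.6 ± 1.6 TPM and Synm 4.16 ± 0.65 TPM. Des held 55.5 ± 4.2% of its family and Vim 42.7 ± 4.2%, and with principal transcripts 42.3% and 56.6%. Flna had 314 ± 51.7 TPM and the muscle filamin Flnc 200 ± 36.5 TPM. Rpl3 had 467 ± 51.3 TPM and its muscle paralog Rpl3l 2.89 ± 1.04 TPM, with 79.4% of the windows of Rpl3 also found in other genes, chiefly its pseudogene Rpl3-ps1.

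**Figure D4:**
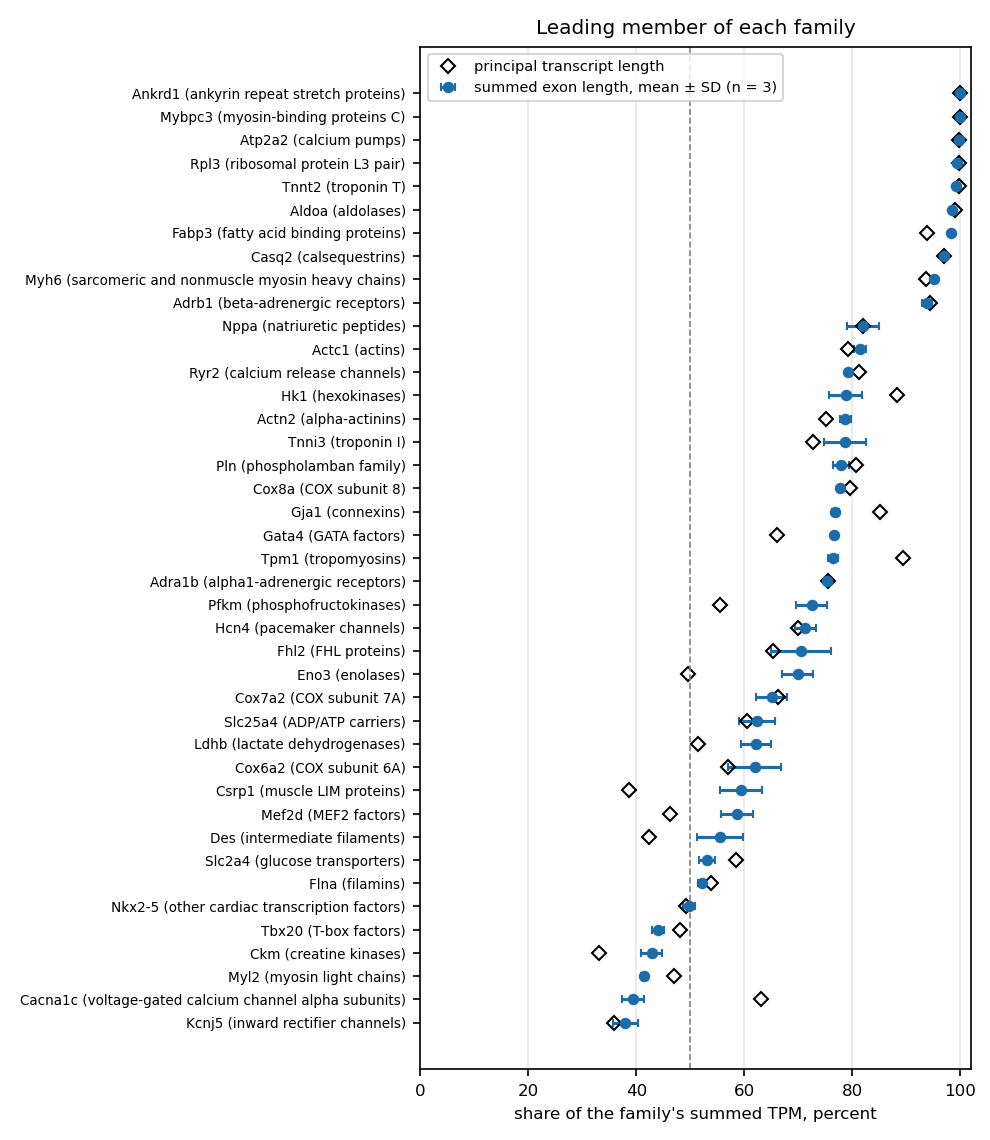
Share of each family's summed TPM held by its leading member (percent), as mean ± SD of 3 libraries with summed exon lengths (filled) and as the mean with principal transcript lengths (open diamonds), for 41 families with at least 2 members of 1 TPM. Troponin T, the calcium pump and myosin-binding protein C lie near 100%, and Cacna1c, Eno3, Csrp1, Mef2d and Des cross 50% between the lengths.

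Long noncoding RNAs, typed as such by the annotation, took 0.617 ± 0.006% of reads. Of 9903, 690 reached 1 TPM in every library, 98 reached 10 TPM and 9 reached 100 TPM. The highest were Bc1, a short brain-enriched RNA of 168 bases, at 1016 ± 98.0 TPM and H19, the imprinted fetal RNA, at 634, 840 and 636 TPM. The place of Bc1 above H19 rests on its short length. Bc1 had 1174, 1325 and 1048 reads against 10480, 14820 and 10753 for H19. Malat1, a nuclear RNA, had 209 ± 1.9 TPM and varied less than all of the other 9. The snoRNA host Gas5 had 46.2 ± 2.1 TPM, and Xist, which silences an X chromosome in female cells, had 39.6 ± 7.2 TPM.

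The others of the highest 10 were Ifi30 at 204, 245 and 218 TPM, Cct6a at 171 ± 19.1 TPM and Tmem134 at 44.6 ± 2.3 TPM, which carry the names of protein-coding genes, and Ndufb1-ps and Tmem250-ps at 90.5 ± 16.1 and 63.0 ± 1.8 TPM. Genes of the Y chromosome were also read, with Eif2s3y at 19.4 ± 0.9 TPM, Ddx3y at 15.9 ± 2.5 TPM, Uty at 4.57 ± 0.82 TPM and Kdm5d at 2.79 ± 0.05 TPM. The lincRNA of the study, Trp53cor1, had 2.51, 2.58 and 2.61 TPM from 63, 69 and 67 reads. Mhrt, antisense to Myh7, had 6.13, 9.76 and 8.39 TPM from 50, 85 and 70 reads. Its span overlaps that of Myh7, which had 9131, 9785 and 10418 reads. As the use of strand in counting is not stated, the level of Mhrt is uncertain.

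Replicates 1 and 3 were close to each other, and replicate 2 stood apart from both. Over 14659 nuclear genes of at least 1 TPM, the median SD of log2(TPM + 1) was 0.15, and the median coefficient of variation was 11.4%, of which counting error alone would give 4.76%. The variation beyond counting error was 9.56% by moments. It was 13.0% for 6124 genes of 1 to 10 TPM, 8.35% for 7174 genes of 10 to 100 TPM, 7.56% for 1272 genes of 100 to 1000 TPM and 9.66% for the 89 genes above. Without replicate 2 the median SD was 0.06 and the variation beyond counting 3.54%.

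Pearson's r across genes, which are not independent replicates, was 0.990 between replicates 1 and 3, 0.982 between 1 and 2 and 0.981 between 2 and 3. Of the 14659 genes, 5.28% differed by at least 0.5 on the log2 scale between replicates 1 and 3, 13.2% between 1 and 2 and 12.0% between 2 and 3. Replicate 2 was the library farthest from the mean of the other two in 72.1% of 8535 genes of at least 10 TPM, against 15.0% for replicate 1 and 12.9% for replicate 3. These counts use TPM with mitochondrial genes in the total, so they include a shift common to nuclear genes. The median log2 difference was 0.18 for replicate 1 minus 2, -0.16 for 2 minus 3 and 0.02 for 1 minus 3. The counts were not computed without mitochondrial genes.

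The gap moved with base composition and transcript length. Over 8248 protein-coding genes of at least 10 TPM, the median of replicate 2 minus the mean of 1 and 3 was -0.16 (log2 TPM + 1). It was -0.23 in the quintile of lowest GC content and -0.10 in that of highest, and -0.12 in the quintile of shortest principal transcripts and -0.22 in that of longest. Replicate 2 also had the larger mitochondrial share, and with mitochondrial genes left out of the total the median was -0.06, and the GC quintiles ran between -0.13 and 0.00. The same medians for replicate 1 minus replicate 3 lay between -0.01 and 0.06. The part of RNA quality or of library preparation was not tested, as no label gives either.

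**Figure D5:**
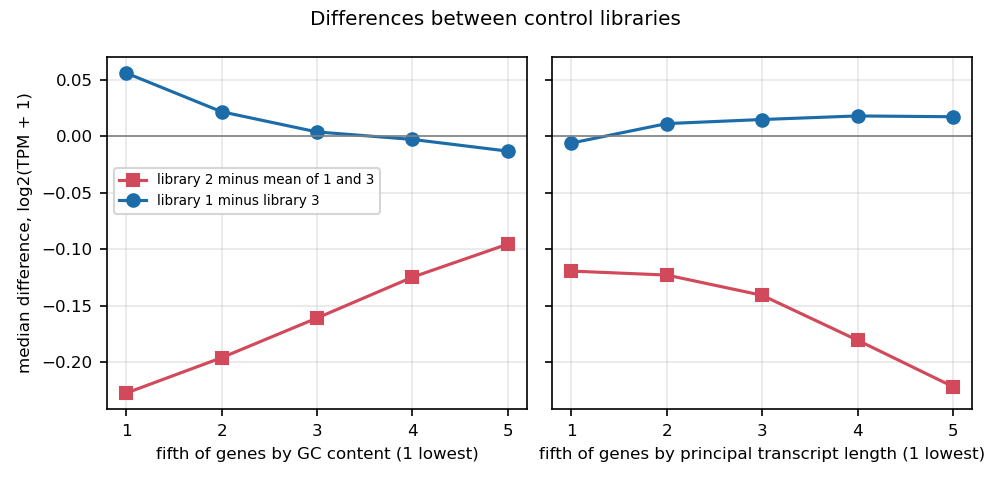
Median difference in log2(TPM + 1) over quintiles of protein-coding genes by GC content (left) and by principal transcript length (right), for library 2 minus the mean of libraries 1 and 3 and for library 1 minus library 3. The first curve lies below 0 throughout, at -0.23 for the lowest GC and -0.22 for the longest transcripts, and the second stays between -0.01 and 0.06.

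Protein-coding genes known only by a model or clone name were left out of the rankings of largest and smallest spread. Of the rest, the 10 of largest spread at 10 TPM or more were all lowest in replicate 2. Atp5e, the epsilon subunit of the ATP synthase, had 158, 49.1 and 158 TPM, an SD of log2 of 0.96. Vkorc1, an enzyme of the vitamin K cycle, had 18.9, 7.14 and 23.7 TPM. The ribosomal proteins Rps29, Rps21 and Rps14 had 353, 271 and 269 TPM in replicate 2, against 515 to 778 TPM in the other libraries. The remaining genes were Ftl1-ps1, Sdhaf4, an assembly factor of complex II, Etfb, which passes electrons from fatty acid oxidation, Bst2, an antiviral membrane protein, and the sialic acid carrier Slc35a1, with SDs of log2 from 0.54 to 0.74.

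At 100 TPM or more, with mitochondrial genes in the total, the smallest spread was that of Msrb1, a methionine sulfoxide reductase, at 123.3, 123.2 and 123.8 TPM. Rpl4 had 1352, 1355 and 1359 TPM, and Rpl27 had 297.6, 300.4 and 299.8 TPM, so ribosomal proteins were found at both ends. Gab1, Ap2m1, Tpp1, Vdac1, Bag6, Tmem176b and Npc2 made up the rest, all with SDs of log2 of at most 0.01. Of the genes most often used as constant references, Actb had 1620, 1640 and 1627 TPM, also an SD of log2 of 0.01, while Gapdh had an SD of log2 of 0.05 and Eef1a1 of 0.07. All of these spreads use TPM with mitochondrial genes in the total, whose share was 21.4%, 26.9% and 21.4%. A gene that was even on this scale therefore took a larger part of nuclear TPM in replicate 2. The order of spread with mitochondrial genes left out was not computed.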

How the data were processed

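The authors deposited 1 table of signal (reads per gene over a size factor of the library) for 55416 genes in 12 libraries, of which only the 3 with PBS and the negative-control GapmeR were used. The tools were STAR, SAMtools and featureCounts on build GRCm38.p6, per the submitters' processing notes. The annotation release, strand use and treatment of multiple matches are stated nowhere in these sources. Per the labels, RNA was extracted with TRIzol, and BGI made the libraries and sequenced paired ends.

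Each column is a multiple of 1 step, and dividing by it gave whole reads for 100% of values in each library (tolerance 0.001). The steps, each the signal of 1 read, were 0.949, 1.02 and 0.944, and the size factor of a library is the inverse of its step. Identifiers were matched without version to GENCODE M21, which gave 52135 genes a length (35 matched with version). The other 3281 held 0.118% to 0.148% of reads. TPM used the summed length of non-overlapping exons. Intervals and floors (3 reads) cover counting error only. Variation beyond counting was computed from the median variance of scaled reads, corrected for 3 values, and this and the TPM were tested on simulated data. The simulated noise was independent between genes, so shifts with GC content or transcript length, as in replicate 2, were not part of it. Windows of 100 bases of each principal transcript were matched letter for letter to all GENCODE M21 transcripts on both strands.

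Genes were named by rule: the 4 markers, the 25 highest nuclear protein-coding and 5 highest mitochondrial genes, the 10 highest long noncoding RNAs, up to 4 members of each cell type list and each member with no read, each family member of at least 1 TPM, and the 10 genes of largest and smallest spread. Genes outside the rule are given where a contrast needs them and were picked after their values were seen: the low mitochondrial genes, their pseudogene copies, some low or defining markers, Adra1a, Mhrt, Trp53cor1 and the Y-linked genes. A few genes that the rule names are not reported here. The members, lists and rules were chosen with earlier results of these data known. No test was run, since 1 group has no contrast. Alternatives were other gene lengths, reads without length, other thresholds and pseudocounts, mitochondrial genes left out, each replicate left out, and edgeR 4.0.16 for the variation. Python 3.11.15, pandas 2.3.3, numpy 2.4.6, scipy 1.17.1 and R 4.3.3 were used.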

Additional observations from a re-analysis of the deposited data

How the results depend on the processing

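No paired analysis was possible because only 1 group entered and no test was run. Lengths decided most values that moved. With the longest transcript, mitochondrial genes held 18.3% of TPM, cardiomyocyte markers 4.79%, fibroblast markers 0.208%, Myh6 93.6% and Tnni3 83.2% of their families. With the principal transcript, chosen after the data were seen, these were 16.3%, 4.93%, 0.228%, 93.6% and 72.7%, and the highest 100 genes held 24.0% of nuclear TPM. As reads without length they were 9.06%, 4.63%, 0.407%, 92.8% and 67.9%, with 15.9% in the highest 100. With mitochondrial genes left out, the cardiomyocyte and fibroblast lists held 5.65% and 0.249%.

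Leaving out each replicate gave 21.4% to 24.1% for mitochondrial genes, 25.04% to 25.8% for the highest 100, 4.26% to 4.44% and 0.188% to 0.196% for the 2 lists, 95.1% to 95.2% for Myh6, 76.4% to 79.8% for Tnni3, 12232 to 12343 detected genes, a median SD of 0.059 to 0.16 and 3.54% to 13.2% variation beyond counting. Detected genes numbered 12899 at 0.5 TPM and 13101 at 10 reads. The median SD was 0.16 with a pseudocount of 0.1, 0.13 from 10 TPM, 0.14 for any read and 0.13 without mitochondrial genes. Variation beyond counting was 9.37% by edgeR and 9.03% without mitochondrial genes.

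Of 42 ratios of a family's first member to its second, the log2 value turned negative for Eno3 over Eno1 (-0.0055 with the longest and with the principal transcript, -0.38 without length), Mef2d over Mef2a (-0.39 with the longest, -0.43 without length), Des over Vim (-0.0054 and -0.42 with the longest and principal transcript), Ldhb over Ldha (-0.36 without length), Ckm over Ckb (-0.64) and Csrp1 over Csrp3 (-0.34), both with the principal transcript. Depth limits the lowest genes: 1 TPM is few reads in a short gene.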
